A study of Saccharomyces cerevisiae with 4 samples.

Results

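The thioredoxin system of budding yeast is described here through 10 genes: the thioredoxins TRX1, TRX2 and TRX3, the thioredoxin reductase TRR1, the peroxiredoxins TSA1, TSA2, AHP1, PRX1 and DOT5, and the sulfiredoxin SRX1. They were chosen by gene symbol in the array's probe annotation, out of 5436 budding yeast genes with a value. Each of the 10 genes had 1 probe set, with no suffix that marks shared sequence. All 10 read above background on all 4 arrays, as did 5392 to 5426 of the 5436 genes on each array. The background thus does little to set the 10 genes apart.

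Thioredoxins are small proteins that reduce disulfide bonds in other proteins, and thioredoxin reductase recharges them with electrons from NADPH. Peroxiredoxins destroy hydrogen peroxide and organic peroxides with a reactive cysteine and are reduced again by thioredoxin. Sulfiredoxin repairs peroxiredoxins whose cysteine has been over-oxidised. In budding yeast the transcription factor Yap1 is known to raise many of these genes under oxidative stress.

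The study measured total RNA of exponentially growing Saccharomyces cerevisiae on 4 Affymetrix arrays, 1 array per group. BY4741 is a common haploid laboratory strain of mating type a, and its genotype is given as his3Δ1, leu2Δ0, met15Δ0 and ura3Δ0. One BY4741 culture was kept at 30 °C in the rich medium YPD and another was exposed to 40 °C for 30 min. The same pair was made from a derivative of BY4741 in which HSP30 was replaced by the kanMX cassette, so all 4 groups carry the parental deletions. No number of independent deletion clones is given. The question was which genes differ in hsp30Δ cells, and the design also allows the heat response to be read in each strain. The values are log2 expression values normalized by the authors, and each rests on a single array, which limits its precision.

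HSP30, which codes for a heat-induced plasma membrane protein and should be missing from the second strain, read 15.51 in unheated BY4741 and 14.18 in heated BY4741. Under the hsp30Δ label its level was 15.18 unheated and 15.91 heated. The targeted gene thus goes against the strain label, unless its probes lie outside the deleted part, which was not analysed here. HSP30 was also 2.53-fold lower at 40 °C in BY4741 and 1.66-fold higher at 40 °C under the hsp30Δ label. The lower value in heated BY4741 runs against a heat-induced gene, and its cause was not tested. Each strain or heat difference below is thus a difference between array labels. MET17, the gene deleted as met15Δ0, sat at the lowest value of 1.95 on all 4 arrays, HIS3 read between 9.95 and 12.36, and LEU2 and URA3 were not analysed here. The 6 a-specific mating genes had array medians from 13.29 to 14.25, and the 4 alpha-specific genes from 5.59 to 7.33, of which SAG1 reached 10.86. BY4741 30 °C stood apart from the other arrays: over 5430 genes its Pearson r with them was 0.787 to 0.849, against 0.937 to 0.980 among the other 3 arrays. Its 10 ribosome biogenesis genes had a median of 11.76, against 7.39 to 8.48 on the other arrays, and its 6 gluconeogenesis and glyoxylate cycle genes had a median of 9.45, against 10.49 to 12.97. BY4741 heat and the strain difference at 30 °C both rest on this array. Heat under the hsp30Δ label and the strain difference at 40 °C do not. The gluconeogenesis and glyoxylate cycle genes also differed among the other arrays. Their median was 10.49 on hsp30Δ 40 °C, 12.8 on hsp30Δ 30 °C and 12.97 on BY4741 40 °C. All 6 were at least 2-fold lower with heat under the hsp30Δ label, where 1.57% of all genes were. The same held for all 6 between labels at 40 °C, where 3.59% of all genes were. The part that growth state had in any difference below was not tested.

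Sulfiredoxin gave the widest range of the 10 genes. SRX1 (systematic name YKL086W) read 7.94 in unheated and 9.58 in heated BY4741. Under the hsp30Δ label it read 12.01 unheated and 11.20 heated. Both arrays labelled hsp30Δ were above both BY4741 arrays, and the unheated BY4741 culture was the lowest. SRX1 was 16.8-fold higher under the hsp30Δ label at 30 °C and 3.08-fold higher at 40 °C. Of all genes, 1.64% had a larger upward difference at 30 °C and 2.95% at 40 °C. Heating went with opposite signs: SRX1 was 3.11-fold higher at 40 °C in BY4741 and 1.75-fold lower at 40 °C under the hsp30Δ label.

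The cytosolic thioredoxins TRX1 and TRX2, a pair of close paralogues that carry out most thioredoxin reactions of the cell, differed from each other. TRX1 (YLR043C) read 14.45 unheated and 13.92 heated in BY4741, and 12.50 unheated and 12.94 heated under the hsp30Δ label. For TRX2 (YGR209C) the same 4 arrays gave 14.96, 15.32, 15.01 and 15.09. TRX1 was lower on both arrays labelled hsp30Δ than on both BY4741 arrays, while TRX2 kept within 0.37 log2 units over all 4. At 30 °C TRX1 was 3.86-fold lower under the hsp30Δ label and TRX2 was higher by 0.05 log2 units, so the pair's ratio differed 4-fold between the arrays. At 40 °C the TRX1 difference was -0.98, just under 2-fold, and the ratio of the pair differed 1.68-fold. How far the probes of each gene also bind the other's transcript was not analysed here, so the sizes for this pair are uncertain.

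TRX3 (YCR083W) is the mitochondrial thioredoxin. It read 11.20 unheated and 12.82 heated in BY4741, and 11.89 unheated and 11.55 heated under the hsp30Δ label. The heated BY4741 array was the highest and the unheated one the lowest, with both hsp30Δ labels between them. TRX3 was 3.08-fold higher at 40 °C in BY4741, and 2.42-fold lower under the hsp30Δ label than in BY4741 at 40 °C, a downward difference exceeded by 1.36% of genes. At 30 °C the sign was the other way, 0.69 log2 units higher under the hsp30Δ label, and heating under that label gave -0.34.

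TRR1 (YDR353W), the cytosolic thioredoxin reductase that serves TRX1 and TRX2, read 14.50 unheated and 13.88 heated in BY4741, and 14.29 and 14.34 under the hsp30Δ label. Only the heated BY4741 array was set off from the rest, by at least 0.41 log2 units. None of its 4 differences reached 2-fold, and their range was -0.62 to 0.46.

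**Figure D1:**
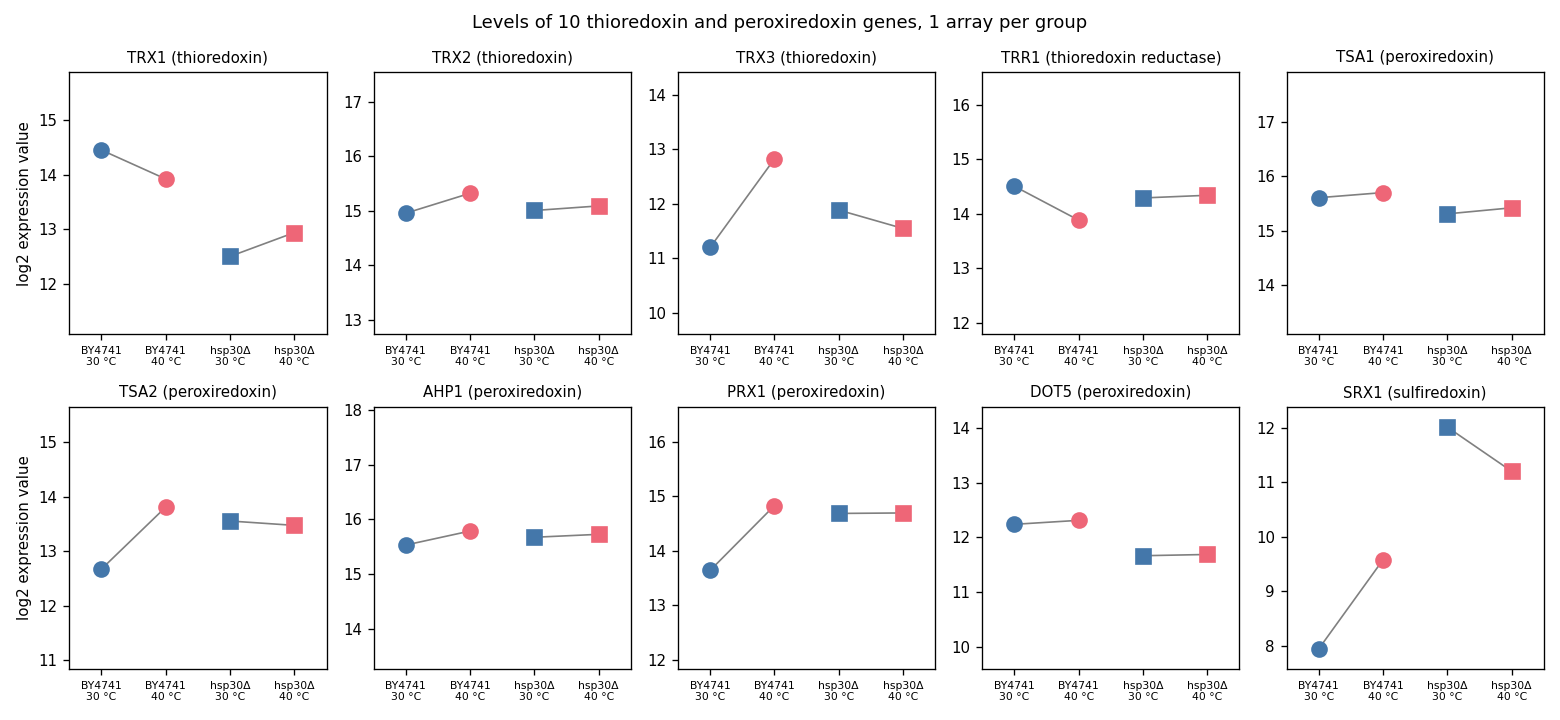
Log2 expression value (vertical axis, 4.8 log2 units in each panel) of the 10 genes on the 4 arrays (horizontal axis), with circles for BY4741, squares for the hsp30Δ label, blue for 30 °C and red for 40 °C. Each point is 1 array, a grey line joins the pair of 1 strain label, and SRX1 runs from 7.94 to 12.01 while AHP1 stays within 0.26 log2 units.

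Among the peroxiredoxins, those that were high on every array varied little. TSA1 (YML028W), the main cytosolic peroxiredoxin, which can also act as a chaperone, read 15.61 unheated and 15.70 heated in BY4741, and 15.31 and 15.42 under the hsp30Δ label. AHP1 (YLR109W), a peroxiredoxin with preference for alkyl hydroperoxides, read 15.53, 15.79, 15.67 and 15.73 in the same order. TSA1 was lower on both arrays labelled hsp30Δ, by 0.30 log2 units at 30 °C and 0.28 at 40 °C, and AHP1 was highest on heated BY4741. Both lay close to the highest value of their array, TSA1 within 0.85 log2 units and AHP1 within 0.49. TRX2 lay between 0.78 and 1.15 log2 units below the highest value. Whether this closeness limits any rise that could be read was not tested.

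TSA2 (YDR453C), the less abundant paralogue of TSA1 in the cytosol, read 12.67 unheated and 13.81 heated in BY4741, and 13.55 and 13.47 under the hsp30Δ label. PRX1 (YBL064C), the mitochondrial peroxiredoxin, read 13.64 and 14.83 in BY4741, and 14.69 and 14.69 under the hsp30Δ label. In both genes the unheated BY4741 array was the lowest and the other 3 lay close together, within 0.34 log2 units for TSA2 and 0.14 for PRX1. Heated over unheated BY4741 was 2.20-fold for TSA2 and 2.28-fold for PRX1. At 30 °C the hsp30Δ label was 1.84-fold higher for TSA2 and 2.06-fold higher for PRX1, the latter at 1.05 log2 units just past the bound. At 40 °C the differences were -0.34 and -0.13. How far the probes of TSA2 and TSA1 share signal was not analysed here.

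DOT5 (YIL010W), a nuclear peroxiredoxin, read 12.24 unheated and 12.31 heated in BY4741, and 11.67 and 11.69 under the hsp30Δ label. It was lower on both arrays with the hsp30Δ label, by 0.58 log2 units at 30 °C and 0.63 at 40 °C. Its heat differences were 0.07 in BY4741, which turned to -0.01 under quantile normalization, and 0.02 under the hsp30Δ label.

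Counted over the 10 genes, heat in BY4741 gave 4 genes at least 2-fold higher (SRX1, TRX3, PRX1 and TSA2) and 0 lower, where 18.9% of 5430 genes were that much higher and 18.8% lower. Their median difference was 0.31, against 0.13 over all genes. Heat under the hsp30Δ label gave 0 at least 2-fold higher and 0 lower, against 1.62% and 1.57% of genes, with a median of 0.04 against 0.01. For the hsp30Δ label against BY4741 at 30 °C, 2 were at least 2-fold higher (SRX1 and PRX1) and 1 lower (TRX1), against 23.2% and 21.4% of genes, with a median of 0.10 against 0.11. At 40 °C 1 was higher (SRX1) and 1 lower (TRX3), against 6.70% and 3.59%, with a median of -0.26 against 0.00. With no fold bound, 2 of the 10 were higher and 8 lower at 40 °C, where 50.3% of all genes were higher. None of these counts has a test, and with 1 array per group neighbouring levels of a gene cannot be set against any spread between cultures.

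**Figure D2:**
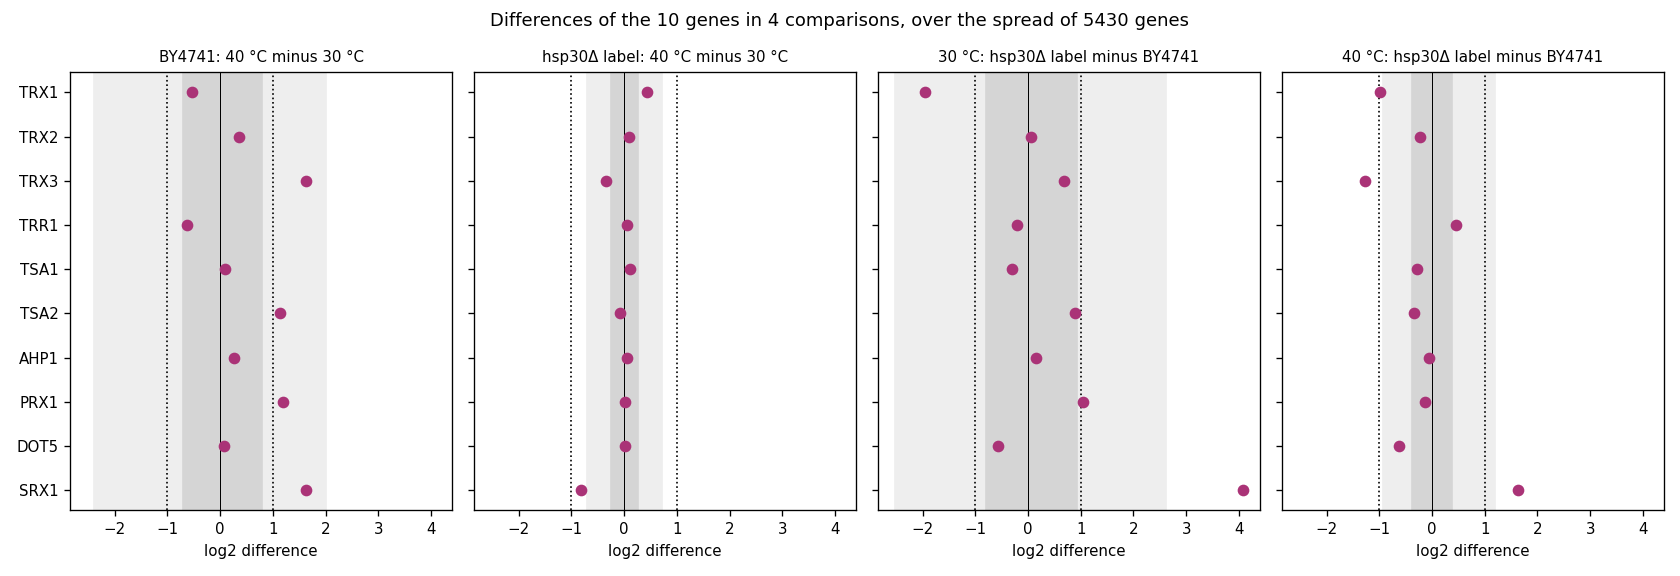
Log2 difference (horizontal axis) of each of the 10 genes in the 4 comparisons, with dotted lines at 2-fold, dark grey for the 25th to 75th percentile of 5430 genes and light grey for their 5th to 95th percentile. The strain panels show SRX1 at 4.07 and 1.62, beyond the light band in both, and TRX3 at -1.28 in the 40 °C panel.

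Unheated BY4741 was the lowest array for 6 of the 10 genes (SRX1, TRX2, TRX3, TSA2, AHP1 and PRX1), where 43.2% of all genes had their lowest value there. Levels that separated the strain labels on all 4 arrays were seen for 4 genes. SRX1 was above, as were 26.2% of all genes, and TRX1, TSA1 and DOT5 were below, as were 22.5%. Both heated arrays were above both unheated ones for TRX2, AHP1 and PRX1, as for 13.6% of all genes, though for PRX1 the arrays labelled hsp30Δ were 0.01 log2 units apart. For 0 of the 10 genes were both heated arrays below, as for 9.50% of all genes. The heat differences under the 2 strain labels share no array. TRX3, TSA2 and SRX1 were higher at 40 °C in BY4741 and lower under the hsp30Δ label, and TRX1 and TRR1 were lower in BY4741 and higher under the label. Under the label the heat differences of TSA2 (-0.08) and TRR1 (0.05) were near 0. Of all genes, 54.8% were higher with heat in BY4741 and 51.3% under the hsp30Δ label. The share of all genes with opposite signs was not counted.

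**Figure D3:**
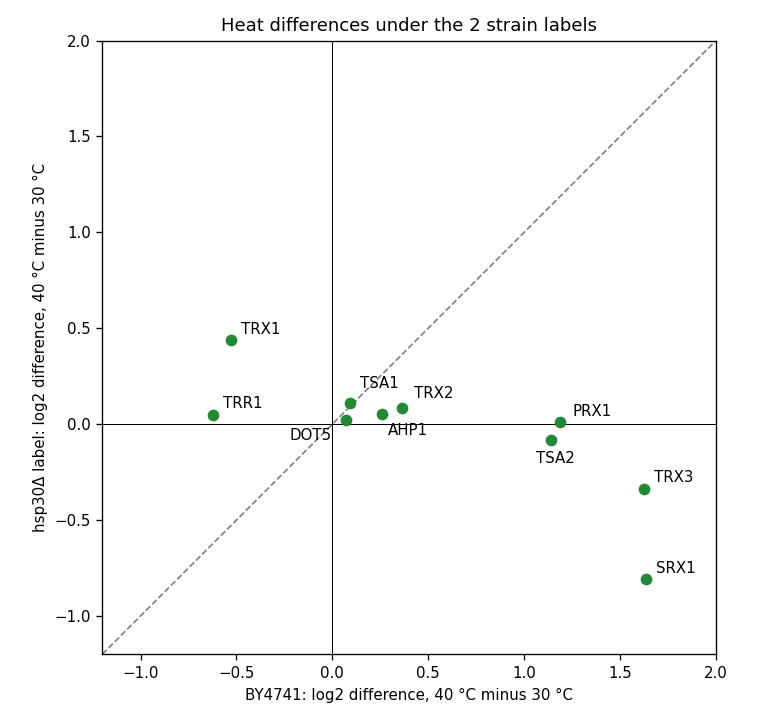
Log2 difference of 40 °C minus 30 °C in BY4741 (horizontal axis) against the same under the hsp30Δ label (vertical axis), 1 point per gene, with a dashed line of equality. SRX1 (1.64 and -0.81) and TRX3 (1.62 and -0.34) lie farthest right and lowest.

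The one test the design allows is an additive limma fit over all 4 arrays, with strain label and temperature as terms and 1 residual degree of freedom per gene. For a strain difference shared by both temperatures 0 of the 10 genes passed at an adjusted p under 0.05, where 0.203% of 5430 genes did (11 rose and 0 fell). At an unadjusted p under 0.05 there were 2 of the 10, SRX1 and TRX1, and 8.20% of all genes. SRX1 was estimated at 2.85 log2 units higher under the hsp30Δ label (SE 0.73, 95% interval 1.12 to 4.57, limma adjusted p 0.353). Under quantile normalization its limma adjusted p was 0.0333, and over the 7 alternatives it ran from 0.0333 to 0.521. TRX1 was estimated at -1.47 (SE 0.60, 95% interval -2.87 to -0.06, limma adjusted p 0.603). The other 8 estimates lay between -0.60 for DOT5 and 0.46 for PRX1.

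For a heat difference shared by both labels 0 of the 10 genes and 0.0% of all genes passed. At an unadjusted p under 0.05 there were 0 of the 10 and 2.01% of all genes. The largest heat estimates were 0.64 for TRX3 (SE 0.68) and 0.60 for PRX1 (SE 0.61), with limma adjusted p 0.998 for both. Any true difference between the labels in their heat response adds to the residual of this fit, and its SE measures no spread between cultures.

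**Figure D4:**
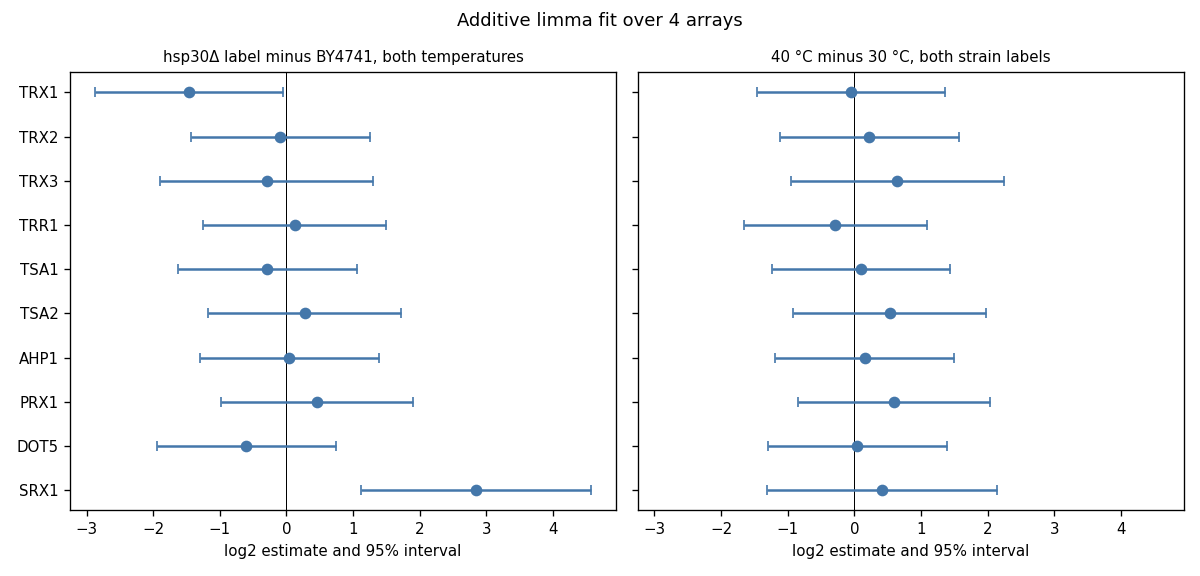
Estimates of the additive limma fit (points) with 95% intervals (bars) in log2 units for the 10 genes, the strain term on the left and the temperature term on the right. In the strain panel the intervals of SRX1 (1.12 to 4.57) and TRX1 (-2.87 to -0.06) lie off 0 before adjustment.

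Genes that work with the thioredoxin system were read from 5 lists. None of their 39 genes passed either term of the fit at an adjusted p under 0.05. Of 7 thioredoxin clients, enzymes reduced by thioredoxin, 1 was at least 2-fold higher and 2 lower under the hsp30Δ label at 30 °C, against 23.2% and 21.4% of all genes. RNR1, the large subunit of ribonucleotide reductase, read 12.08 in unheated BY4741, 8.44 in heated BY4741, and 8.00 and 8.64 under the hsp30Δ label, unheated and heated. RNR3, its damage-inducible counterpart, read 9.09, 10.16, 11.16 and 11.17 in that order. MXR2, the mitochondrial methionine sulfoxide reductase, read 11.51, 12.44, 10.05 and 10.21, so that like TRX1 it was lower on both arrays labelled hsp30Δ. The cytosolic MXR1 read between 10.74 and 11.70.

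Of 7 other peroxidases, reductases and glutaredoxins, heated BY4741 showed 3 at least 2-fold up and 1 down, where 18.9% and 18.8% of all genes were. With heat under the hsp30Δ label 0 reached 2-fold in either direction, where 96.8% of all genes did not. Between labels at 40 °C 0 did, where 89.7% of all genes did not. There 0 of the 7 were higher under the hsp30Δ label, with differences from -0.74 to -0.09, where 50.3% of all genes were higher. TRR2, the mitochondrial thioredoxin reductase, read 11.86 unheated and 13.43 heated in BY4741, and 12.33 and 12.69 under the hsp30Δ label. It thus had the same lowest and highest arrays as TRX3, at 2.98-fold for heat in BY4741. The same lowest and highest arrays were seen for TRX2, TSA2, AHP1 and PRX1, and for GPX1, GRX1 and GRX2 of this list. The share of all genes with this order was not counted. GPX1, a glutathione peroxidase, was 3.66-fold higher on heated BY4741, and its paralogue GPX2 was 2.34-fold lower. GRX2, a glutaredoxin, was 2.10-fold higher there.

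A list of 6 regulator genes held YAP1, SKN7, YBP1 and CRM1 of the Yap1 pathway, and the general stress factor genes MSN2 and MSN4. All 6 were higher under the hsp30Δ label at 30 °C, by 0.44 to 0.94 log2 units, where 53.5% of all genes were higher. Of the 6, 0 were past 2-fold, where 55.4% of all genes were within it. SKN7, a factor that acts with Yap1, was higher by 0.86 and 0.96 at 30 °C and 40 °C, and YAP1 itself by 0.58 and 0.09. The general stress factor gene MSN2 was higher by 0.94 and 0.31 at these temperatures, and CRM1, the exporter of Yap1, by 0.44 and 0.68. MSN4, the partner of MSN2, differed by 0.66 at 30 °C and by -0.18 at 40 °C. The 30 °C values rest on the BY4741 array that stood apart.

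Of 9 known Yap1 targets outside the 10 genes, 4 were at least 2-fold higher under the hsp30Δ label at 30 °C and 0 lower, against 23.2% and 21.4% of all genes. At 40 °C 0 were higher and 2 lower, against 6.70% and 3.59%. OYE3, an NADPH oxidoreductase, read 8.06 on BY4741 30 °C and 12.35 to 12.96 on the other 3 arrays. CTA1, the peroxisomal catalase, read 6.93 on BY4741 30 °C and 10.11 to 11.38 on the others. FLR1, a drug transporter, and GTT2, a glutathione transferase, were 2.65-fold and 2.39-fold higher on heated BY4741. The unheated BY4741 array was the lowest for these 4 and for 6 of the 9 in all, where 43.2% of all genes were lowest there, and ATR1, YCF1 and OYE2 were lowest on another array.

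Among 10 genes that supply NADPH, 3 were at least 2-fold higher and 4 lower under the hsp30Δ label at 30 °C, against 23.2% and 21.4% of all genes. IDP2, the cytosolic isocitrate dehydrogenase, was 15.7-fold higher and GND2, the minor 6-phosphogluconate dehydrogenase, 3.74-fold higher. GND1, its major paralogue, was 4.50-fold lower and SOL3, a 6-phosphogluconolactonase, 3.54-fold lower. At 40 °C 9 of the 10 were within 2-fold between the labels, as were 89.7% of all genes.

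**Figure D5:**
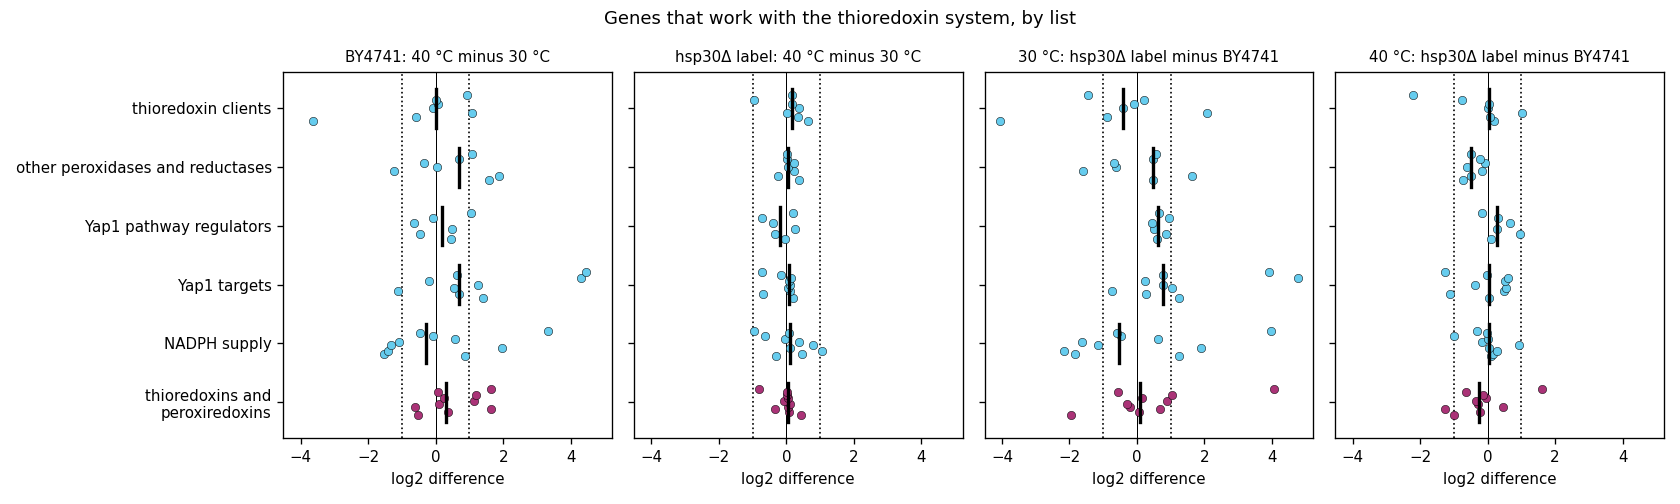
Log2 difference (horizontal axis) of each gene of the 5 lists and of the 10 thioredoxin and peroxiredoxin genes in the 4 comparisons, with a bar at each list's median and dotted lines at 2-fold. Spread is wide in the 2 comparisons that use BY4741 30 °C, from -4.07 for RNR1 to 4.78 for OYE3, and narrow for heat under the hsp30Δ label.

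The genes whose 4-array profile lay nearest were taken for SRX1 and TRX1, by Euclidean distance between profiles centred on their mean over the 4 arrays. For SRX1 these were SPS1 (distance 0.30 log2 units), IRC15 (0.32) and ASF2 (0.33). SPS1 was not stable to scaling: under quantile normalization its heat difference in BY4741 went from 1.51 to -0.37 and its strain difference at 30 °C from 4.27 to 2.54. For TRX1 they were DAM1 (0.13), EST3 (0.14) and SRP21 (0.17). IRC15 read 7.74, 9.61, 12.24 and 11.08 on BY4741 30 °C, BY4741 40 °C, hsp30Δ 30 °C and hsp30Δ 40 °C by label, and DAM1 10.44, 10.07, 8.50 and 8.99. With 4 points per profile and 5430 genes searched, near profiles are a description of these arrays.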

How the data were processed

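The deposited table holds log2 expression values for 5802 probe sets on 4 arrays, and 0 columns of other samples. GCRMA and MAS5 are named in the submitters' processing notes, with no version, role or order given. The values were used as deposited, since array medians lie between 11.13 and 11.19. The annotation pairs 5483 probe sets with a gene ID of the reference gene table. A further 32 carry lower-case gene names and IDs that the table does not hold. They were taken as fission yeast probe sets, which this array design also carries, and their 95th percentile on each array (median over arrays 1.96) was the background. A gene was read from its probe set with the highest mean, differences were taken after a floor at background, and 5430 of 5436 genes above background on at least 1 array were compared. At least 2-fold means a log2 difference of 1 or more. The test was limma 3.58.1 in R 4.3.3 (lmFit and eBayes on unfloored values, Benjamini-Hochberg over 5430 genes), checked on simulated data. The simulated data had the same noise level for all genes and no difference in heat response between the labels. That check therefore covers the code and not how the test behaves on these arrays.

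The genes and lists were chosen with earlier results of these data known. By the naming rule the 10 genes are always named, with HSP30 and the parental deletions, up to 4 genes of each list by largest difference, and the 3 nearest profiles of the 2 genes with the widest range. No genome build is named for the files, so no coordinates are given, and probe sequences were not analysed here.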

Additional observations from a re-analysis of the deposited data

Results flagged for a closer look

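In 3 genes the heat difference had opposite signs under the 2 strain labels and the difference between them was at least 1 log2 unit. The difference of the responses, hsp30Δ label minus BY4741, was -2.44 for SRX1, -1.96 for TRX3 and -1.22 for TSA2. The share of all genes that meet both conditions was not counted, so the count cannot show whether these genes stand out. With heat in BY4741 62.3% of all genes were within 2-fold, against 96.8% with heat under the hsp30Δ label. Each side is 1 array against 1 array, and the difference of the responses was not tested. For TSA2 the side under the hsp30Δ label was -0.08, so its value is nearly that of BY4741 alone with the sign turned. The BY4741 side of all 3 rests on the unheated BY4741 array, which stood apart from the rest.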

How the results depend on the processing

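No paired analysis was possible because each group holds 1 array, and for the same reason no replicate could be left out. Of 200 recomputed differences of the 10 genes (quantile normalization, median centring, no floor, mean of probe sets, probe sets without a suffix), 199 stayed on their side of 2-fold and 0 beyond it changed sign. The exception was TRX1 at 40 °C between labels, -1.01 under median centring, which made the count of lower genes there 2. Only quantile normalization and median centring could move these differences, since each gene has 1 probe set, without a suffix, and reads above background. At 1.5-fold the counts of higher and lower among the 10 were 4 and 1 for BY4741 heat (33.1% and 27.6% of all genes), 0 and 1 for heat under the hsp30Δ label (8.14% and 7.79%), 4 and 1 between labels at 30 °C (34.9% and 30.4%), and 1 and 3 at 40 °C (15.8% and 15.1%). At 3-fold they were 2 and 0 (7.96% and 10.6%), 0 and 0 (0.368% and 0.424%), 1 and 1 (12.8% and 12.8%), and 1 and 0 (3.20% and 0.497%) in the same order. In the strain term of the fit 1 of the 10 genes (SRX1) and in all 80 genes rose and 30 fell under quantile normalization, while 0 genes rose under median centring or with no filter on dim genes. SPS1 turned to -0.37 for BY4741 heat under quantile normalization. A robust prior variance and medians without SRX1 were chosen after seeing the data. The robust prior variance changed no call of the 10 genes. Medians without SRX1 cannot change a call of a gene. They were 0.26 for BY4741 heat, 0.05 for heat under the hsp30Δ label, 0.05 between labels at 30 °C and -0.28 at 40 °C. The cause of the changes under other processing was not tested. All 10 genes read above background on all 4 arrays, as did 5392 to 5426 of 5436 genes on each array.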
